A study of Homo sapiens with 13 samples.

Results

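The 10 genes described here are markers and regulators of the mesenchymal state and of the epithelial-to-mesenchymal transition (EMT): VIM, ZEB1, ZEB2, SNAI1, SNAI2, TWIST1, CDH2, FN1, CD44 and SPARC. They were chosen by symbol among the 56831 genes listed for H82 and H146, established cell lines of small cell lung cancer (SCLC), a tumour of neuroendocrine cells, and each had a row in both tables. For H82 there were 3 RNA-seq libraries without FHD-286 and 3 with it, and for H146 there were 3 without and 4 with it. Treated cells of both lines received 100 nM FHD-286, an inhibitor of the ATPases SMARCA4 and SMARCA2 of BAF chromatin remodelling complexes, over 14 days with regular renewal of the drug. Untreated cells had no treatment, no vehicle is named for them, and all cells were labelled wild type. Each line is a single cell model, and nothing in the labels says whether replicate libraries came from separate cultures, so p-values measure only the spread between these libraries.

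In an EMT, epithelial cells lose cell contacts and keratins and gain a motile, matrix-producing state. ZEB1 and ZEB2 are zinc finger and homeodomain repressors, SNAI1 and SNAI2 are zinc finger repressors, and TWIST1 is a basic helix-loop-helix factor; all of them bind E-box sequences and are known to lower E-cadherin (CDH1) in many carcinomas. Their usual readouts are the intermediate filament protein vimentin (VIM), N-cadherin (CDH2), the matrix proteins fibronectin (FN1) and osteonectin (SPARC), and the hyaluronan receptor CD44. N-cadherin is also a normal adhesion protein of neurons, and SCLC lines commonly mix epithelial and neural features. Levels are given in TPM (transcripts scaled to a common library sum), which are scaled for gene length and can be compared between genes. The sum of every library is fixed in TPM, so depth is unknown and no counting interval can be given.

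The ZEB and SNAI repressors recognise the E-box core CACCTG, which reads CAGGTG on the other strand, so the sequence before transcription starts is shown for the member that rose in both lines, for a regulator, and for an epithelial gene that fell in both lines. Sequences are the 250 bases before a start in the RefSeq promoter table of GRCh38.p14, printed 5′ to 3′ on the gene's strand, with the E-box in capitals. VIM lies at chr10:17227991-17228240 on the plus strand, ZEB1 at chr10:31318167-31318416 on the plus strand (the first of 7 listed starts) and RAB25, a small GTPase of epithelial membrane recycling, at chr1:156060910-156061159 on the plus strand.
VIM: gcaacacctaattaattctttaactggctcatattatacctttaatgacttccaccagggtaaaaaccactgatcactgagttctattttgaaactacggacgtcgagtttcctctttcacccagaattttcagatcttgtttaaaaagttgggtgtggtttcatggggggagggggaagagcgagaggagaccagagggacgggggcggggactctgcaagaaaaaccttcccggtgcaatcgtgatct
ZEB1: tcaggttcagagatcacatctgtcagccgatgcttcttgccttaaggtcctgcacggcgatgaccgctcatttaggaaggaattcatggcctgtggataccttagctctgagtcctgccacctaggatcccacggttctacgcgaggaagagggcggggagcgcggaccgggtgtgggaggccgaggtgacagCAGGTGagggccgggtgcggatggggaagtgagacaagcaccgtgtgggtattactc
RAB25: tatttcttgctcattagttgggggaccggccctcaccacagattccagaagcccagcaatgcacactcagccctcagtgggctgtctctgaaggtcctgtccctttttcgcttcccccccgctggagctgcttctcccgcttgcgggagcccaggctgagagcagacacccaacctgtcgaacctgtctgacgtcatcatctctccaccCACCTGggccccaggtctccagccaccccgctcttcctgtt
The VIM window held no such E-box, the ZEB1 window held 1 that began 57 bases before the start, and the RAB25 window held 1 at 41 bases. Promoters of 7 of the 10 members were in the table, but not those of SNAI1, SNAI2 and TWIST1. Of the 14 promoters of these 7 genes, 2 had the motif, against 17.5% of all 35116 promoters of that length. Both belonged to ZEB1, so 1 of the 7 genes held it, against 20.6% of all genes there. For the 42 epithelial genes and EMT repressors listed as the counterpart of the members, 23 genes were in the table, but not CDH1. Of their 34 promoters 17 held the motif, from 15 of these genes. A match of these letters is a description of the sequence and was not tied to binding of any factor.

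Before treatment the lines held almost opposite sets of EMT regulators. Untreated H82 had 24.4, 29.5 and 24.1 TPM of ZEB1, 5.56, 6.85 and 5.51 TPM of ZEB2, and 65.3, 49.8 and 60.3 TPM of SNAI1. In untreated H146, ZEB1 was 0.1, 0.12 and 0.13 TPM, ZEB2 was 0.17, 0.11 and 0.17 TPM, and SNAI1 was 9.79, 9.73 and 7.4 TPM. SNAI2 and TWIST1 went the other way, with 24.2, 29.0 and 19.8 TPM of SNAI2 and 59.2, 70.4 and 66.4 TPM of TWIST1 in untreated H146, against at most 0.42 and 0.51 TPM in untreated H82. No untreated library of one line overlapped those of the other line for any of these 5 regulators. The share of all genes without such overlap was not computed, but 70.9% of genes tested differed between the untreated lines, as given below.

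The effectors split between the lines as well. VIM was 6.69 to 8.45 TPM in untreated H82 and 0.61 to 0.91 TPM in untreated H146, and SPARC was 73.1 to 77.2 TPM against 8.91 to 12.6 TPM. CDH2, at 63.0 to 89.6 TPM in H146 against 3.1 to 4.63 TPM in H82, and CD44, at 9.43 to 12.8 TPM against 0.13 to 0.18 TPM, were on the side of H146. FN1 was alike in level, at 7.94 to 8.16 TPM in H82 and 4.6 to 8.04 TPM in H146. In the fit of log2(TPM + 1) across the 24374 genes tested in all 13 libraries with limma, 5 members were higher and 4 were lower in untreated H82, and FN1 did not pass (difference 0.30 ± 0.42 SE, adjusted p = 0.529). Of all genes tested, 70.9% differed between the untreated lines at this threshold, an adjusted p under 0.05. The differences were largest for TWIST1, which was lower in H82 by a log2 difference of -5.57 ± 0.31 SE (adjusted p = 1.13e-08 with limma), and for ZEB1, which was higher by 4.59 ± 0.18 SE (adjusted p = 6.29e-10 with limma). ZEB1 and ZEB2 reached 1 TPM only in H82 libraries, so they passed the filter only through H82 and their direction was fixed.

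Within untreated H82, SPARC and SNAI1 were the highest of the members, ZEB1 came next, FN1, VIM and ZEB2 lay between 5.51 and 8.45 TPM with the libraries of VIM overlapping those of both others, CDH2 was lower, and TWIST1, SNAI2 and CD44 were all under 1 TPM. Within untreated H146, CDH2 and TWIST1 led with overlapping libraries, SNAI2 followed, and SPARC, CD44, SNAI1 and FN1 lay between 4.6 and 12.8 TPM, each overlapping the next in this order. VIM, ZEB2 and ZEB1 were under 1 TPM in each untreated H146 library.

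**Figure D1:**
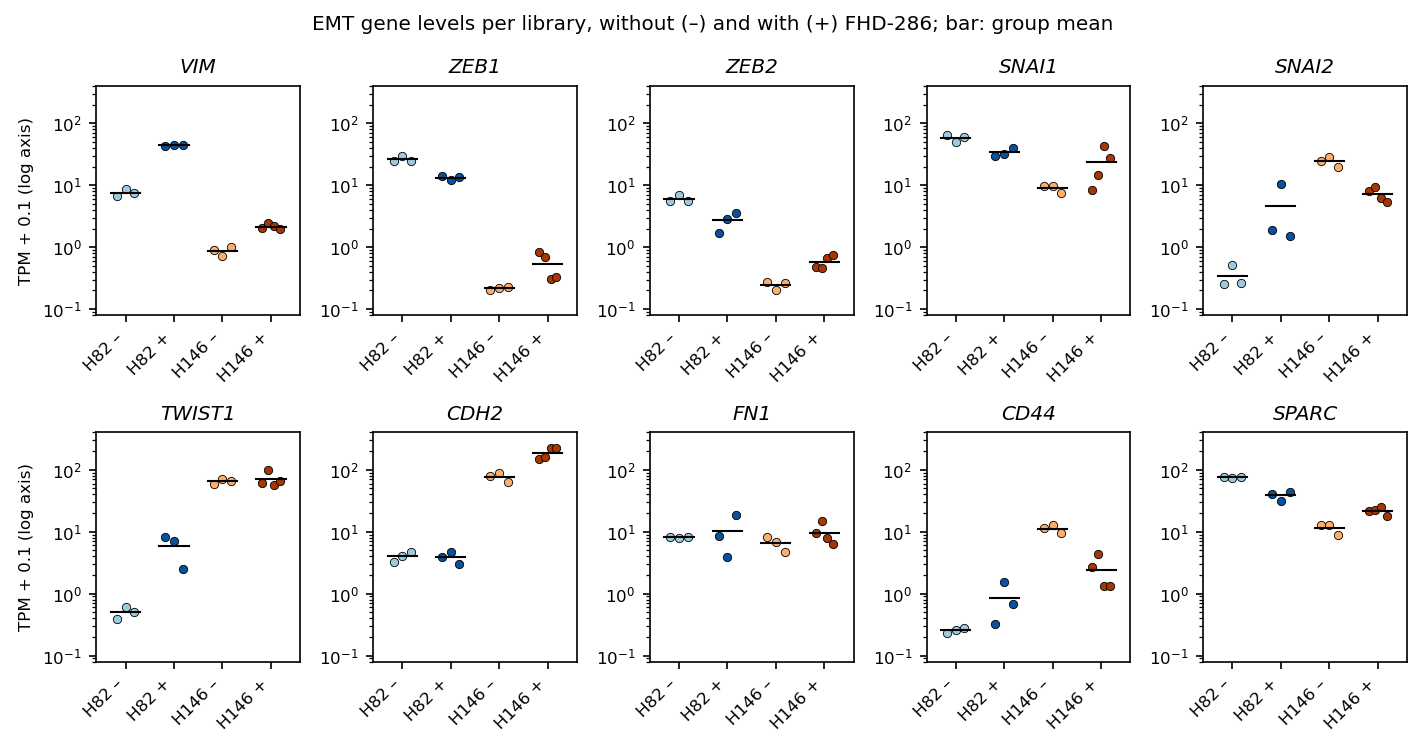
TPM of each member in every library (vertical log axis, TPM plus 0.1) for untreated (–) and FHD-286-treated (+) H82 and H146, with points for the libraries and bars for group means. VIM rises in both lines, from 7.49 to 43.9 TPM on average in H82 and from 0.77 to 2.04 TPM in H146, while SNAI2 moves up in H82 and down in H146.

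The H82 libraries under FHD-286 need a remark before their values. A set of 220 genes with at least 10 TPM in each untreated H146 library and at most 0.1 TPM in each untreated H82 library summed to 1.62 to 2.35 TPM in untreated H82 and to 0.89%, 4.31% and 0.43% of their untreated H146 level in treated H82 replicates 1, 2 and 3. Replicate 2 thus stood apart, with 50.2 TPM of the keratin gene KRT19 against 1.43 and 1.15 TPM in the other two treated libraries. Without it the same number of members, 3 and 4, were called higher and lower in H82, and calls of named genes that were lost without it are given below. Whether these transcripts came from H146 RNA or from the treated H82 cells was not tested. The number of genes at 1 TPM or more fell from 21227 to 21772 in untreated H82 libraries to 15554 to 16633 in treated ones, and the median log2 difference over all genes tested was -0.56. After scaling by the median of ratios, which sets the typical gene of each library to a common level, that median was -0.14, so results in H82 are given under both scalings where they differ. In H146 the median was 0.25 as deposited and -0.02 after scaling. Mitochondrial transcripts made up 22.1% to 24.1% of TPM in untreated and 12.3% to 14.9% in treated H82 libraries. In H146 they made up 7.56% to 8.86% in untreated and 3.82% to 11.4% in treated libraries. The part of these shares in the changes was not tested. In RNA from whole cultures, fewer cells of a type and less RNA per cell cannot be told apart.

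In H82, FHD-286 raised VIM strongly, raised TWIST1 and SNAI2 from near 0 to low levels, and lowered ZEB1, ZEB2, SNAI1 and SPARC in the TPM as deposited. Of 9 members that passed the filter of 1 TPM in 3 libraries, 3 were higher and 4 were lower at an adjusted p under 0.05 with limma, where 13.1% of 19770 genes were higher and 45.5% were lower. With median of ratios scaling, 3 were higher and 2 were lower, against 24.2% and 32.9% of genes. The treated and untreated libraries did not overlap for 7 of the 9, as for 67.8% of all genes tested. SNAI2 and TWIST1 passed the filter only through the treated libraries, so that they had to be higher there. The median log2 difference of the 9 was -0.03 as deposited and 0.36 with median of ratios scaling.

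Vimentin filaments give mesenchymal cells their mechanical strength, and VIM (ENSG00000026025.16, hg38 chr10:17228241-17237593, protein-coding) was the member with the clearest change in H82. It was 6.69, 8.45 and 7.34 TPM in the untreated libraries and 43.57, 44.07 and 44.04 TPM in the treated ones. The treated libraries were almost equal and all above the untreated ones, a 5.86-fold rise of the mean. The log2 difference was 2.41 ± 0.15 SE (adjusted p = 0.000108 with limma) and 2.86 ± 0.14 SE with median of ratios scaling (adjusted p = 0.00012 with limma). Marker genes of fibroblasts, which are rich in VIM, were also higher in treated H82. Their summed level over 9 genes was 1.98 to 2.93 TPM in untreated libraries, with 3 of the 9 at 0 in each, and 14.9, 8.07 and 38.0 TPM in treated replicates 1, 2 and 3, with 0, 1 and 0 of them at 0. Their part in the rise of VIM was not tested. Without treated replicate 2 the log2 difference of VIM was 2.40 (adjusted p = 0.000743 with limma).

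TWIST1 was 0.28, 0.51 and 0.4 TPM in untreated H82 and 7.99, 7.03 and 2.38 TPM in treated H82. All 3 treated libraries were above all untreated ones, with the third well below the others (log2 difference 2.16 ± 0.38 SE, adjusted p = 0.0028 with limma). These treated values were 12.2%, 10.8% and 3.65% of the mean in untreated H146, from 0.43% to 0.78% without the drug. Without replicate 2 the log2 difference was 1.98 (adjusted p = 0.0111 with limma). SNAI2 was 0.15, 0.42 and 0.16 TPM in untreated H82 and 1.78, 10.4 and 1.44 TPM in treated H82. The high value was that of replicate 2, at 43.0% of the untreated H146 level, while replicates 1 and 3 were at 7.32% and 5.91% of it. The log2 difference of SNAI2 was 1.78 ± 0.57 SE (adjusted p = 0.0313 with limma), and 1.07 without replicate 2 (adjusted p = 0.0115 with limma). It did not pass with no filter on low values (adjusted p = 0.0693 with limma) or when any 1 untreated library was left out (0.0748 to 0.0862).

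CD44 stayed below the filter in H82, with 0.13, 0.16 and 0.18 TPM in untreated and 0.23, 1.47 and 0.57 TPM in treated libraries. The groups did not overlap, and the highest treated value was again that of replicate 2, at 13.2% of the untreated H146 level. The two-sided exact permutation test gave p = 0.1, the smallest that 3 against 3 libraries allow.

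**Figure D2:**
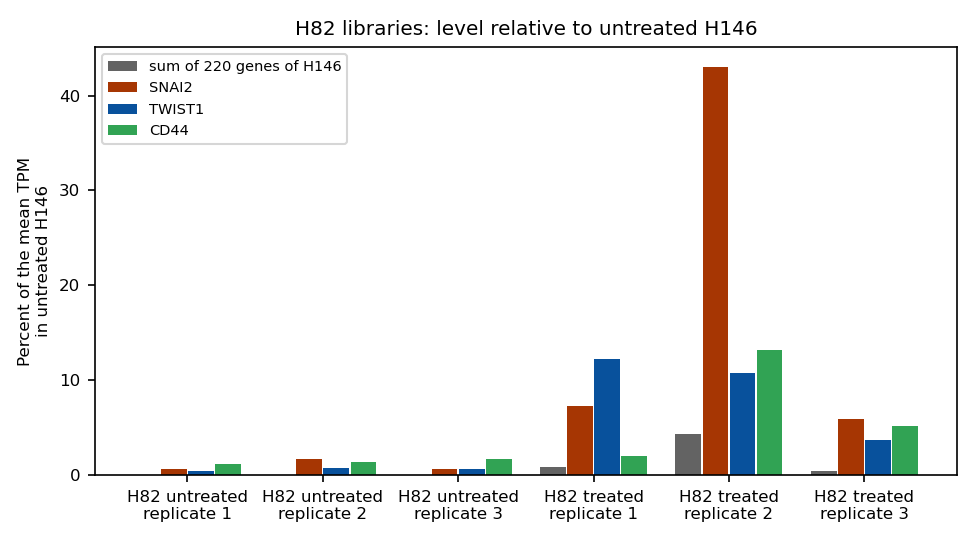
Level in each H82 library as a percent of the mean TPM in untreated H146 (vertical axis, linear) for the sum of the 220 genes of H146 and for SNAI2, TWIST1 and CD44. The summed genes were chosen to be near 0 in untreated H82, so their order against the members says nothing; SNAI2, CD44 and the summed genes are each highest in treated replicate 2, where SNAI2 reaches 43.0%, while TWIST1 is highest in replicate 1.

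The ZEB and SNAI1 repressors moved the other way in H82. ZEB1 was 24.4, 29.5 and 24.1 TPM without and 14.1, 12.3 and 13.3 TPM with FHD-286. No treated library reached the untreated range, and the mean was 1.97-fold lower (log2 difference -0.93 ± 0.15 SE, adjusted p = 0.0021 with limma). With median of ratios scaling the difference was -0.46 ± 0.15 SE (adjusted p = 0.0355 with limma), and that scaling without treated replicate 2 gave -0.33 (adjusted p = 0.156). ZEB2 was 5.56, 6.85 and 5.51 TPM without and 1.58, 2.77 and 3.47 TPM with the drug. The groups did not overlap (log2 difference -0.98 ± 0.25 SE, adjusted p = 0.0138 with limma), but the call was lost with median of ratios scaling (-0.60, adjusted p = 0.0767), with quantile normalization (-0.03, adjusted p = 0.934) and without untreated replicate 2 (adjusted p = 0.0519). SNAI1 was 65.3, 49.8 and 60.3 TPM without and 29.7, 31.5 and 40.5 TPM with FHD-286, again with no overlap (log2 difference -0.77 ± 0.18 SE, adjusted p = 0.0084 with limma). It did not pass with median of ratios scaling (-0.29, adjusted p = 0.166). As deposited and without treated replicate 2, the log2 differences were -0.88 for ZEB1, -1.03 for ZEB2 and -0.73 for SNAI1 (adjusted p = 0.00942, 0.0298 and 0.031 with limma). Despite their lower values, SNAI1 and ZEB1 remained the most abundant of the 5 regulators in treated H82.

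SPARC, a collagen-binding matrix glycoprotein, was 77.2, 73.1 and 75.1 TPM in untreated and 41.0, 31.6 and 43.0 TPM in treated H82. All treated libraries were lower (log2 difference -0.96 ± 0.16 SE, adjusted p = 0.00197 with limma). Scaling by the median of ratios left -0.47 ± 0.15 SE (adjusted p = 0.0344 with limma), and leaving out treated replicate 2 as well gave -0.26 (adjusted p = 0.159). CDH2 was 3.1, 3.93 and 4.63 TPM without and 3.86, 4.65 and 2.86 TPM with the drug, with overlapping groups (log2 difference -0.03 ± 0.23 SE, adjusted p = 0.911 with limma). Its difference was positive under both other scalings, 0.36 with the median of ratios (adjusted p = 0.244) and 0.92 with quantile normalization (adjusted p = 0.016). FN1 was 8.16, 7.94 and 8.0 TPM in untreated libraries and spread to 8.58, 3.81 and 18.6 TPM in treated ones. The treated libraries lay on both sides of the untreated ones (log2 difference 0.10 ± 0.47 SE, adjusted p = 0.872 with limma). The highest FN1 value was in treated replicate 3, the library with the highest sum of fibroblast markers. With the median of ratios and without treated replicate 2, FN1 passed (1.12, adjusted p = 0.0265 with limma).

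In H146 the response had another composition: CDH2, SPARC and VIM rose and SNAI2 and CD44 fell, while TWIST1, FN1 and SNAI1 did not pass the test. Of the 8 members tested, 3 were higher and 2 were lower, against 32.5% and 15.5% of 19585 genes. The same 5 calls were made with median of ratios scaling, where 21.3% of genes were higher and 25.1% were lower. Groups did not overlap for 5 of the 8, as for 52.9% of all genes tested. The median log2 difference of the 8 members was 0.62 as deposited and 0.38 with median of ratios scaling. VIM passed the filter only through the treated libraries.

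CDH2 (hg38 chr18:27932879-28177946, protein-coding) had the highest mean of the members in untreated H146, with 79.4, 89.6 and 63.0 TPM in untreated libraries and 146.5, 160.7, 224.9 and 225.9 TPM in treated ones. Each treated library was above each untreated one, and the mean was 2.45-fold higher (log2 difference 1.27 ± 0.20 SE, adjusted p = 0.00132 with limma; 0.95 with the median of ratios). SPARC was 12.5, 12.6 and 8.91 TPM without and 21.2, 22.04, 24.5 and 17.8 TPM with FHD-286. The mean rose 1.88-fold with no overlap (log2 difference 0.86 ± 0.17 SE, adjusted p = 0.00404 with limma). VIM was 0.79, 0.61 and 0.91 TPM without and 1.94, 2.31, 2.08 and 1.84 TPM with the drug. Its mean rose 2.65-fold with no overlap (log2 difference 0.78 ± 0.17 SE, adjusted p = 0.00547 with limma), yet the treated level stayed below that of every untreated H82 library. Summed fibroblast markers were 8.6 to 11.9 TPM in untreated and 18.8 to 37.6 TPM in treated H146, and at most 2 of the 9 were at 0 in any of these libraries. Their part in these rises was not tested.

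SNAI2, the highest of the SNAI genes in untreated H146, was 24.2, 29.0 and 19.8 TPM without and 8.09, 9.17, 6.17 and 5.28 TPM with the drug. Every treated library was below every untreated one, and the mean was 3.39-fold lower (log2 difference -1.64 ± 0.21 SE, adjusted p = 0.000531 with limma). CD44 was 11.2, 12.8 and 9.43 TPM without and 2.58, 4.33, 1.21 and 1.25 TPM with FHD-286. Its mean was 4.75-fold lower, again with no overlap (log2 difference -1.95 ± 0.32 SE, adjusted p = 0.00166 with limma). The tables hold 1 value per gene, so standard and variant forms of CD44, and splice forms of FN1, were not resolved.

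SNAI1 spread widely in treated H146, with 8.21, 14.7, 42.8 and 27.7 TPM against 9.79, 9.73 and 7.4 TPM in untreated libraries. The first treated library lay inside the untreated range and the others above it (log2 difference 1.06 ± 0.47 SE, adjusted p = 0.0925 with limma), and without that library SNAI1 passed (1.45, adjusted p = 0.0159). TWIST1 was 59.2, 70.4 and 66.4 TPM without and 60.2, 97.6, 56.5 and 66.5 TPM with FHD-286, with overlapping groups (log2 difference 0.07 ± 0.19 SE, adjusted p = 0.774 with limma; -0.24 with the median of ratios). FN1 was 8.04, 6.74 and 4.6 TPM without and 9.5, 14.7, 7.74 and 6.21 TPM with the drug, also overlapping (log2 difference 0.46 ± 0.28 SE, adjusted p = 0.206 with limma).

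ZEB1 and ZEB2 were below the filter in H146. ZEB1 was 0.1, 0.12 and 0.13 TPM without and 0.74, 0.59, 0.21 and 0.23 TPM with FHD-286, and ZEB2 was 0.17, 0.11 and 0.17 TPM without and 0.39, 0.35, 0.56 and 0.64 TPM with it. All treated libraries were higher for both genes. On log2(TPM + 1), a two-sided exact permutation test of group means gave p = 0.0857 for ZEB1 and p = 0.0286 for ZEB2, where 0.0286 is the smallest p that 3 against 4 libraries allow. With quantile normalization this permutation test gave p = 0.0857 for ZEB2. The levels remained under 1 TPM. Genes of H82, 182 chosen in the mirrored way, summed to 0.36% to 0.70% of their untreated H82 level in treated H146 libraries and to 0.03% to 0.05% in untreated ones, and ZEB1 and ZEB2 in treated H146 averaged 1.7% and 8.11% of their untreated H82 means.

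**Figure D3:**
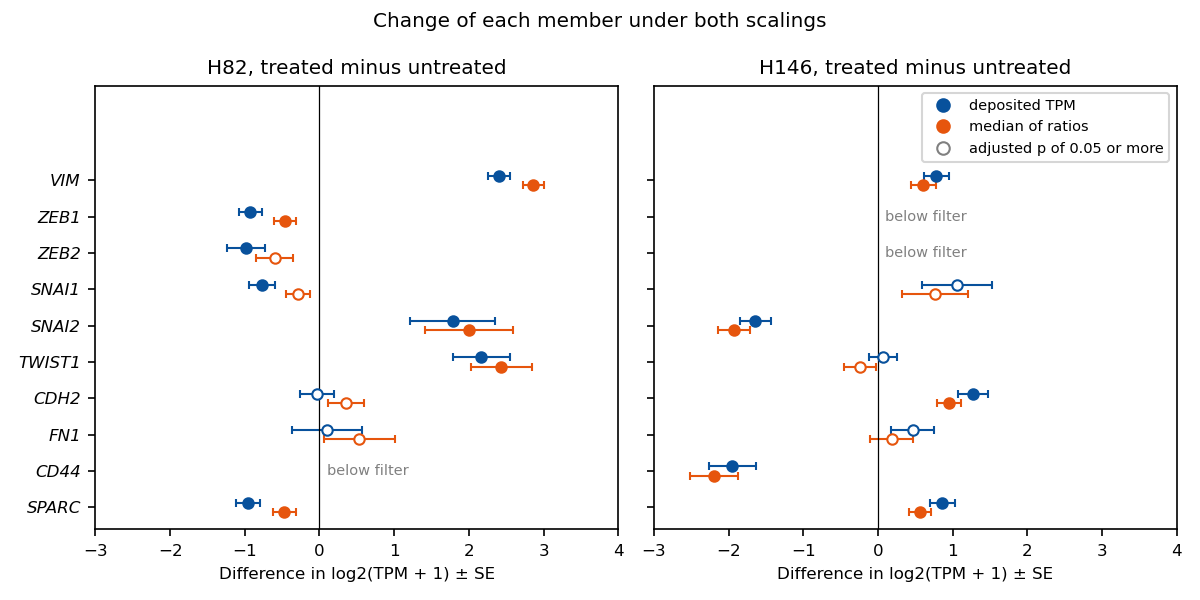
Difference in log2(TPM + 1) between treated and untreated libraries for each member in H82 and H146 (horizontal axis, points with SE), from the TPM as deposited and after median of ratios scaling, with filled points for an adjusted p under 0.05. VIM lies above 0 in both lines under both scalings, while ZEB2 and SNAI1 in H82 lose their filled points after scaling.

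The difference between the lines in their response was tested as an interaction of line and treatment over all 13 libraries. All 10 members were tested, and 9 passed at an adjusted p under 0.05, where 59.3% of all genes tested did; with the median of ratios it was 7 of 10, against 56.3%. The effect in H146 minus that in H82 was largest for SNAI2, at -3.42 ± 0.63 SE (adjusted p = 0.00057 with limma), the one member called higher in H82 and lower in H146. SPARC had the opposite arrangement, lower in H82 and higher in H146, with a difference of 1.82 ± 0.23 SE (adjusted p = 3.84e-05 with limma). VIM rose in both lines and more in H82 (-1.63 ± 0.20 SE, adjusted p = 3.29e-05 with limma), and its sign and call held under both other scalings. For SNAI1 and CDH2 the interaction did not pass with the median of ratios (adjusted p = 0.114 and 0.0781 with limma). FN1 did not pass (0.37 ± 0.57 SE, adjusted p = 0.6 with limma).

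Other regulators of EMT included genes called in each direction. Of 26 listed, 20 were tested in H82, where 6 rose and 5 fell, and 16 in H146, where 8 rose and 4 fell; with the median of ratios it was 7 and 2 in H82 and 7 and 4 in H146. Of all genes tested, 13.1% rose and 45.5% fell in H82 and 32.5% rose and 15.5% fell in H146, the shares against which this and the following lists stand. The median log2 difference was 0.00 in H82 and 0.59 in H146, beside -0.56 and 0.25 for all genes. In H82 the largest rise was that of PRRX2, a paired-type homeobox gene of mesenchyme, from a mean of 1.07 to 21.2 TPM (log2 difference 3.48, adjusted p = 0.000195 with limma). TGFB1, the cytokine most used to induce EMT in culture, rose from 20.7 ± 3.59 to 154.1 ± 49.3 TPM (SD, n = 3 each; log2 difference 2.79, adjusted p = 0.000314 with limma) in H82. In H146 it was 66.9 ± 7.02 and 72.9 ± 20.7 TPM (SD, n = 3 and 4; log2 difference 0.09, adjusted p = 0.759 with limma). RUNX2, a Runt factor best known from bone, had the largest fall in H82, from 11.8 to 1.52 TPM.

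The forkhead gene FOXC1 rose in both lines. It went from 0.23 to 2.0 TPM in H82 and from 4.92 to 39.4 TPM in H146 (log2 differences 1.28 and 2.77, adjusted p = 0.00319 and 1.48e-05 with limma), where it was the largest rise of the list. In H82 it passed the filter only through the treated libraries, so that it had to be higher there. SMAD3 and SMAD4, which carry TGF-beta signals to the nucleus, fell in both lines as deposited. SMAD3 was lower by log2 differences of -2.25 in H82 and -0.67 in H146, and SMAD4 by -0.58 and -0.63, the call in H82 being lost for SMAD4 with the median of ratios (adjusted p = 0.571). SNAI3, the third SNAI gene, had the largest fall in H146, from 5.26 to 0.785 TPM.

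Mesenchymal effectors were called in both directions in each line. Of 34 genes listed, 18 were tested in H82, with 2 higher and 7 lower, and 23 in H146, with 4 higher and 6 lower; with the median of ratios it was 6 and 5 in H82 and 3 and 8 in H146. In H82 the counts as deposited lay near the shares of all genes, 13.1% higher and 45.5% lower. The median log2 difference was -0.42 in H82 and 0.11 in H146. MMP14, a membrane-anchored matrix metalloproteinase, rose in both lines as deposited, from 2.29 to 21.2 TPM in H82 (log2 difference 2.72, adjusted p = 0.000222 with limma) and from 4.6 to 7.95 TPM in H146 (0.67, adjusted p = 0.00788 with limma; 0.0664 with the median of ratios). LOX, which crosslinks collagen, had the largest rise in H146, from 3.06 to 29.6 TPM, while its relative LOXL2 fell in both lines, from 6.72 to 1.1 TPM in H82 and from 9.58 to 3.0 TPM in H146. THY1 and PLAUR, cell surface proteins of fibroblasts and of invading cells, also fell in both as deposited (PLAUR in H82 not with the median of ratios, adjusted p = 0.0786; THY1 passed the filter in H82 only through the untreated libraries), and TAGLN, an actin-binding protein of smooth muscle, had the largest fall in H82, from 11.9 to 2.24 TPM.

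The epithelial counterpart of the members differed between the lines before treatment. Of 41 epithelial genes and EMT repressors tested across both lines, 36 were lower and 2 were higher in untreated H82, where 70.9% of all genes differed in either direction. Some of them, such as CDH1, GRHL2 and CRB3, reached 1 TPM in no H82 library, so their direction was fixed by the filter. E-cadherin (CDH1) was 0.09 TPM in 1 untreated H82 library and listed at 0 in the other two, and 0.21, 0.4 and 0.12 TPM in treated H82. In H146 it was 60.8, 58.9 and 45.5 TPM without and 59.2, 90.2, 56.3 and 55.9 TPM with FHD-286, with overlapping groups (log2 difference 0.23 ± 0.20 SE, adjusted p = 0.366 with limma). H146, with almost no ZEB1 or ZEB2 RNA, had high CDH1 RNA together with high SNAI2, TWIST1 and CDH2 RNA. Under FHD-286 SNAI2 fell there and CDH1 did not pass the test. A link between the levels of these genes was not tested.

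With treatment, epithelial genes in H146 divided into 18 that fell and 9 that rose among 40 tested (24 and 7 with the median of ratios), where 15.5% of all genes fell and 32.5% rose, with a median log2 difference of -0.36. The keratin KRT19 had the largest fall, from 928.6 to 58.4 TPM (log2 difference -3.97, adjusted p = 1.14e-06 with limma), and EPCAM, an epithelial adhesion molecule, fell from 686.8 ± 18.6 to 326.1 ± 53.0 TPM (SD, n = 3 and 4; log2 difference -1.09, adjusted p = 0.000628 with limma). PKP2, a desmosome protein, had the largest rise, from 22.4 to 58.0 TPM. In H82, 3 of 24 tested rose and 7 fell (5 and 4 with the median of ratios), where 13.1% and 45.5% of all genes did, with a median log2 difference of 0.34. KRT8 had the largest rise there, from a mean of 0.37 to 11.2 TPM (log2 difference 2.77, adjusted p = 0.00799 with limma; 2.05 without treated replicate 2, adjusted p = 0.00634), and LLGL2, a polarity protein, the largest fall, from 21.3 to 3.19 TPM. LLGL2, RAB25 and the junction protein TJP3 fell in both lines as deposited. The call of TJP3 in H82 was lost without treated replicate 2 (-0.59, adjusted p = 0.127 with limma) and with the median of ratios (adjusted p = 0.203). RAB25, whose promoter is printed above, went from 2.15 to 0.13 TPM in H82 and from 47.5 to 26.7 TPM in H146 (log2 differences -1.46 and -0.82, adjusted p = 0.0013 and 0.00356 with limma). KRT8 passed the filter in H82 only through the treated libraries and RAB25 only through the untreated ones, so their directions there were fixed. In H82 treated replicate 2, EPCAM was 32.8 TPM against 3.08 and 1.11 TPM in the other treated libraries, so its mean there rests on that library.

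**Figure D4:**
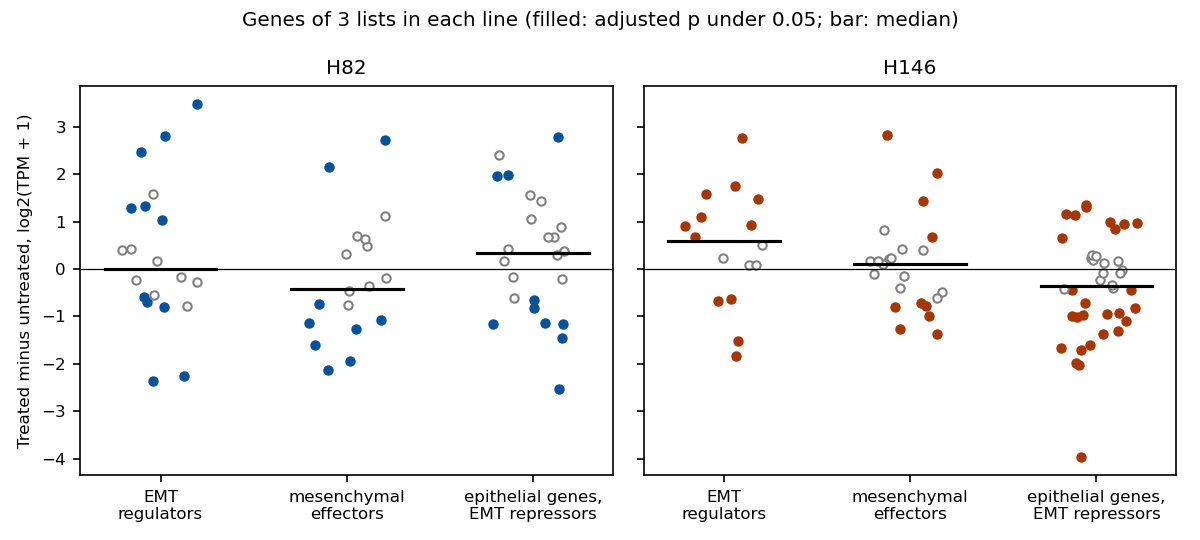
Difference in log2(TPM + 1) between treated and untreated libraries (vertical axis) for tested genes of 3 lists in H82 and H146, with filled points for an adjusted p under 0.05 and bars for medians. Genes of each list lie on both sides of 0 in both lines, and the lowest point is KRT19 in H146 at -3.97.

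Among proteins that work with the members, the ERM protein gene RDX, a partner of CD44 at the membrane, rose in both lines as deposited (log2 differences 0.80 in H82 and 1.04 in H146; in H82 without treated replicate 2, 0.66 with adjusted p = 0.0734), and the alpha-catenin gene CTNNA2 fell in both (-1.11 and -0.65). Of 30 such partners, 1 rose and 5 fell among 24 tested in H82, and 12 rose and 4 fell among 26 tested in H146; with the median of ratios it was 8 and 4 in H82 and 9 and 6 in H146. The shares of all genes were 13.1% and 45.5% in H82 and 32.5% and 15.5% in H146. The higher count in H82 was 7 without treated replicate 1 and 0 without any other library. The largest fall in H82 was that of GSK3B, a kinase that marks SNAI1 for degradation, at -1.26. In H146 TCF12, a helix-loop-helix protein that pairs with TWIST1, had the largest fall at -1.02, and BTRC, a ubiquitin ligase subunit that acts on SNAI1, the largest rise at 1.23.

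The relatives of the members are genes of the same families. Of 24 relatives, 1 rose and 8 fell among 14 tested in H82, and 3 rose and 9 fell among 15 tested in H146; with the median of ratios it was 2 and 6 in H82 and 2 and 10 in H146, beside 13.1% and 45.5% of all genes in H82 and 32.5% and 15.5% in H146 as deposited. SPOCK1, a proteoglycan of the SPARC family, fell in both lines, from 76.2 to 3.62 TPM in H82 and from 15.3 to 1.14 TPM in H146 (log2 differences -4.23 and -2.94, adjusted p = 0.000278 and 3.97e-05 with limma). SMOC1, another SPARC relative, rose from 6.79 to 34.2 TPM in H82 and fell from 61.6 to 0.99 TPM in H146 (2.06 and -5.01, adjusted p = 0.00224 and 3e-06 with limma). Nestin (NES), an intermediate filament gene of neural progenitors, fell in both lines (-3.35 and -0.63), as did peripherin (PRPH) as deposited (-1.05 and -1.17). In H82 the call of PRPH was lost without treated replicate 2 (-0.88, adjusted p = 0.111 with limma) and with the median of ratios (adjusted p = 0.16). NEFM, a neurofilament gene, had the largest rise of the relatives in H146, from 0.43 to 4.72 TPM, and passed the filter only through the treated libraries.

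Genes that mark the neuroendocrine state of SCLC were detected in every library, but not at a constant level. The sum of 8 such genes was 1349 to 1438 TPM in untreated and 1176 to 1524 TPM in treated H82, with 5 of the 8 called lower and 2 higher. The synaptic vesicle gene SYP fell there from 202.1 to 46.8 TPM and the secretory granule gene CHGA from 143 to 32.6 TPM, while UCHL1 rose from 412.2 to 896 TPM. INSM1, the other gene called higher, rose from a mean of 14.4 to 120.7 TPM. It was 296.1 TPM in treated replicate 2, the library with the highest sum, against 32.1 and 33.9 TPM in replicates 1 and 3. Without replicate 2 its log2 difference was 1.15 (adjusted p = 0.004 with limma). In H146 the sum was 4156 to 4598 TPM without and 3027 to 3565 TPM with FHD-286, with no overlap, and 3 of 7 tested were called lower. The sum of 9 leukocyte and endothelial markers was 2.3 to 4.57 TPM in untreated and 2.18 to 4.15 TPM in treated H82. In H146 it was 9.67 to 13.2 TPM in untreated libraries and 12.2, 10.7, 23.5 and 21.9 TPM in treated ones, where LYZ rose from 0.32 to 2.13 TPM (adjusted p = 0.00247 with limma) and VWF fell from 1.96 to 0.08 TPM. In H146 LYZ passed the filter only through the treated libraries and VWF only through the untreated ones, so their directions were fixed. The part of these shifts in the members' results was not tested.

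The members were compared with all other genes by the Pearson correlation of log2(TPM + 1) over the 13 libraries, as a description only, since the libraries fall into 4 groups that differ in most genes. Of the members with the widest range of group means, TWIST1 was most like DFNB31 (r = 0.996), ALDH1A1 (0.994) and TMSB4X (0.992). CDH2 was most like LHFP (0.998), CST6 (0.997) and PCDHB5 (0.997). VIM was most like DMD (0.991), RP5-1021I20.1 (0.989) and C9orf40 (0.984). The number of the 24373 other genes with r above 0.95 was 517 for TWIST1, 1059 for CDH2 and 124 for VIM, and 0 for FN1.

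Genes that overlap the members limit how their values can be read. In the GENCODE annotation, release 44, VIM, ZEB1, ZEB2 and CD44 share their loci with the antisense genes VIM-AS1, ZEB1-AS1, ZEB2-AS1 and CD44-AS1. SNAI2, TWIST1, CDH2 and SPARC also overlap antisense genes (CLMAT3 for SPARC), while SNAI1 and FN1 overlap no other gene. Whether reads were counted by strand is not given in the sources used here, so reads of a gene and its antisense partner cannot be told apart. ZEB1-AS1 was 2.83 to 3.75 TPM in untreated and 1.7 to 4.43 TPM in treated H82, against 24.1 to 29.5 and 12.3 to 14.1 TPM of ZEB1, and at most 0.34 TPM in H146. ZEB2-AS1 was at most 0.23 TPM in any library, and MIR205HG, host of a microRNA that acts on ZEB1 and ZEB2, at most 0.22 TPM. VIM-AS1, SNAI3-AS1, MIR200CHG and the antisense genes at SNAI2, TWIST1, CDH2 and SPARC were not analysed here.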

How the data were processed

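Per the submitters' processing notes and the study's methods, the authors trimmed reads with Trim Galore 0.4.4, mapped them to hg38 with STAR, counted them per gene with GENCODE release 28 and used DESeq2. They deposited 1 table of TPM values per line, each column summing to 1000000; the gene lengths used are not given in the sources used here, and TPM keeps no depth.

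Genes that reached 1 TPM in 3 or more libraries were fitted per line in R 4.3.3 with limma 3.58.1 (lmFit, eBayes with trend) on log2(TPM + 1), treated against untreated, two-sided, and p-values were adjusted by Benjamini-Hochberg over every gene tested. Interaction and baseline came from 1 fit over 13 libraries. Differences are on this scale, which understates changes of low genes. Members below the filter had an exact permutation test. Means and SD are of TPM. Named genes were all members and, per list, the largest rise and fall in each line, up to 4 genes called alike in both lines, and set control genes; 1 gene under this rule is not reported here. Members and lists were chosen with earlier results of these data known. Alternatives were a pseudocount of 0.1, no filter, a mean TPM above 2, median of ratios, quantile normalization, a replicate block, eBayes without trend, a log2 fold change of at least 1, the plain log2 ratio of TPM means and each library left out; median of ratios without H82 treated replicate 2 was chosen after seeing the data. The fit was tested on simulated data. Python 3.11.15 prepared tables and plots.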

Additional observations from a re-analysis of the deposited data

Results flagged for a closer look

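The treatment effect differed between the lines for 9 of the 10 members by the interaction test with limma, which 59.3% of all genes tested passed. With the median of ratios the calls of SNAI1 and CDH2 were lost, and 56.3% of all genes passed. ZEB1, ZEB2 and VIM in untreated H146, and SNAI2, TWIST1 and CD44 in untreated H82, were under 1 TPM, with little room to fall. The effect in H146 minus that in H82, as a difference of log2(TPM + 1), was -1.63 for VIM, 1.28 for ZEB1, 1.35 for ZEB2, 1.83 for SNAI1, -3.42 for SNAI2, -2.09 for TWIST1, 1.30 for CDH2, -2.49 for CD44 and 1.82 for SPARC. The median of this difference over all genes tested was 0.75 as deposited and 0.17 with the median of ratios, so the positive values of ZEB1, ZEB2, SNAI1, CDH2 and SPARC lay between 0.52 and 1.08 above it and the values of VIM, SNAI2, TWIST1 and CD44 lay 2.38 to 4.17 below it. In the treated H146 libraries, the one group with 4 samples, no member had a library apart from the others by Dixon's criterion.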

How the results depend on the processing

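The higher calls of VIM and TWIST1 in H82, and the 5 calls in H146, kept their direction and side of the threshold. This held in every fit that tested them, other than the fold threshold below. VIM in H146 was not tested with a mean TPM above 2. TWIST1 in H82 and VIM in H146 passed the main filter only through the treated libraries, so their direction was fixed. In H82 the lower members numbered 2 with the median of ratios and 0 with that scaling without treated replicate 2 or with a log2 fold change of at least 1, a threshold that left 1 higher member in H146. Of all 19770 genes tested in H82, 8996 were lower as deposited, against 6499, 5536 and 6800 under these settings. Of all 19585 genes tested in H146, 6356 were higher as deposited and 2857 with the fold threshold. Positive interactions fell to 3 after median of ratios scaling, 2 with quantile normalization and 2 with the median of ratios without treated replicate 2. Over all 24374 genes tested they fell as well, from 11213 as deposited to 7514, 6092 and 6823 under these settings. The cause of these changes was not tested beyond the scaling itself.

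In H82, EMT regulators called lower numbered 2 with the median of ratios or the fold threshold, and 3 with no filter, quantile normalization or the median of ratios without replicate 2 (2 to 6 with 1 library left out). Effectors called higher numbered 6, 7 and 5 under the median of ratios, quantile normalization and the former without replicate 2 (2 to 4 with a library left out), and under the last of these 4 were lower. Epithelial genes called higher numbered 5, 13 and 6 under these 3 settings (2 to 5 with a library left out), and those called lower 4, 1 and, with a mean TPM above 2, 4 (4 to 7). Over all 19770 genes tested in H82, those called higher numbered 2588 as deposited and 4793, 5256 and 4421 under these 3 settings. Those called lower numbered 8996 as deposited and 6499, 4859 and 5536 under them. In H146 the fold threshold left 5 regulators higher and 2 lower, 2 effectors lower, and 4 epithelial genes higher and 10 lower, and regulators called higher numbered 5 to 8 with a library left out. Over all 19585 genes tested there, this threshold left 2857 higher and 1542 lower, from 6356 and 3033 without it.

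Signs turned only for differences that had not passed: CDH2 in H82 (0.36, 0.92 and 0.29 under the median of ratios, quantile normalization and the former without replicate 2, and -0.16 to 0.11 with a library left out), FN1 in H82 (-0.41 to 0.60 likewise), TWIST1 in H146 (-0.24 and -0.044 under the median of ratios and quantile normalization, and -0.10 to 0.16 likewise), the interaction of FN1 (-0.35, -0.62 and -0.92, and -0.14 to 0.88) and its baseline difference (-0.019 with quantile normalization). Same-numbered libraries did not pair: their deviations correlated at 0.027, 0.0075 and -0.038 in H82 and -0.111, -0.065 and 0.011 in H146. With the replicate block, 3 members were higher and 4 lower in H82, and 3 higher and 2 lower in H146, as without it. Changes of genes near 1 TPM, such as VIM in H146 and FOXC1 and RAB25 in H82, carry a counting error that TPM does not give. Their tests rest on the spread between libraries alone. Splice forms were not resolved.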
